A study of Mus musculus with 26 samples.

Results

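The genes described here are the secreted and membrane-bound axon guidance cues of the mouse retina and the receptors that read them, measured by RNA-seq in pools of intrinsically photosensitive retinal ganglion cells (ipRGCs), the ganglion cells that make the photopigment melanopsin (Opn4), and in pools of conventional retinal ganglion cells (cRGCs). They were picked by a rule on symbols, set with earlier results of these data known. It takes the rows of the deposited expression table whose name begins with Sema3 to Sema7, Plxn, Epha, Ephb, Efna or Efnb and a number, or is Nrp1, Nrp2, Unc5a to Unc5d, Dcc, a netrin, Slit1 to Slit3, Robo1 to Robo4 or Draxin. The rule found 62 of the 14580 genes in the table: 19 semaphorins, 12 Eph receptors, 8 plexins, 7 ephrins, 5 netrin receptors (Dcc and the Unc5 genes), 4 rows named for netrins or Draxin, 3 Slits, 2 neuropilins and 2 Robo receptors. One row did not hold what its name says. The gene listed as Ntn3 is ENSMUSG00000036473, which the mouse mm9 gene annotation calls Tbc1d24, so its values are given below as those of a row labelled Ntn3 and not of netrin-3. The gene that the annotation calls Ntn3, ENSMUSG00000079662, had no symbol in the table and was not a member. It lay between 11.2 and 19.2 CPM in ipRGCs and between 5.13 and 7.97 CPM in cRGCs at P5, and between 0 and 13.2 CPM in ipRGCs and between 1.63 and 191 CPM in cRGCs in Opn4-Cre/GFP adults, and was not listed for Opn4-GFP adults.

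Axon guidance genes steer growing axons by attraction and repulsion and are used again when dendrites stratify and synapses are sorted. Netrins attract through Dcc and repel through the Unc5 receptors. Semaphorins act mostly through plexins, the secreted class 3 forms usually with a neuropilin as co-receptor. Ephrins signal to Eph receptors between touching cells and can signal back into the cell that carries them, and Slits repel axons through Robo receptors. In the retina these families keep ganglion cell axons on course to the optic disc, map them in the brain and confine neurites to layers of the inner plexiform layer, where Sema6a with Plxna4 and Sema5a with Sema5b, acting on Plxna1 and Plxna3, are known from mouse mutants.

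The study compared GFP-positive with GFP-negative cells from retinas of 2 melanopsin reporter lines, after enrichment for the ganglion cell surface protein Thy1 and fluorescence-activated cell sorting. The P5 groups held 3 ipRGC and 3 cRGC pools from Opn4-GFP+/- mice on a BL6 background at postnatal days 4 to 6. The adult groups were aged 27 to 33 days and held 6 and 6 pools from Opn4-GFP+/- mice on BL6, and 4 and 4 pools on a mixed background from Opn4-Cre+/-;Z/EG+/- animals, called Opn4-Cre/GFP here. These backgrounds are those of the sample labels, whereas the study's text describes the mice of both lines as of mixed background. All groups, cRGCs included, came from reporter-carrying retinas, and each library was made from a pool of mice. By the study's account the Opn4-GFP transgene marks ipRGC types M1 to M3 and the Cre line, in which Cre made at the melanopsin locus switches on GFP, types M1 to M6, and both leave part of the melanopsin cells unmarked, so GFP-negative pools can hold some ipRGCs. Values are scaled CPM, that is, reads per 1000000 library reads after the authors' scaling of library sizes within each age and line. The text writes that a gene was called, or was higher or lower, where limma gave an adjusted p (Benjamini-Hochberg, over all genes listed for that age and line) below 0.05 and its log2 fold change (log2FC, ipRGC minus cRGC) lay beyond 1 in either direction. The authors listed a gene for an age and line only where it passed their minimum of 1 CPM in enough libraries, which 60 members did at P5, 54 in Opn4-GFP adults and 60 in Opn4-Cre/GFP adults.

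The libraries held 3927386 to 44871619 reads on listed genes. Melanopsin cell markers (7 of 7 listed in each age and line) summed to 3699 to 4503 CPM in P5 ipRGC pools and 121 to 128 CPM in P5 cRGC pools, to 5145 to 10496 against 103 to 332 CPM in Opn4-GFP adults, and to 2149.7 to 5409 against 8.37 to 177 CPM in Opn4-Cre/GFP adults. General ganglion cell markers were close at P5 (17 of 17 listed, 8881 to 11737 in ipRGC pools and 10532 to 12353 in cRGC pools), whereas in adults (16 of 17 listed) the cRGC pools summed to 789.8 to 2657 in Opn4-GFP and 965 to 2956 in Opn4-Cre/GFP, below the 6037 to 7994 and 5703 to 8858 CPM of the ipRGC pools. Müller glia markers moved the other way in adults. They summed to 12483 to 30542 CPM in adult Opn4-GFP cRGC pools and 772 to 1876 CPM in the ipRGC pools (19 of 21 listed), and to 11800.0 to 48950.0 and 980.1 to 1843 CPM in Opn4-Cre/GFP adults (21 of 21 listed), while at P5 both kinds of pool were low (512 to 739 and 485 to 580.5 CPM, 16 of 21 listed). Vascular markers were also high in the adult cRGC pools (554 to 1647 against 0.726 to 52.1 CPM in Opn4-GFP, 3 of 14 listed, and 659 to 3115 against 13.4 to 37.8 CPM in Opn4-Cre/GFP, 4 of 14 listed). At P5 they summed to 11.4 to 13.8 CPM in ipRGC pools and to 18.7, 7.25 and 302 CPM in cRGC pools (3 of 14 listed), so that cRGC pool 3 alone was high. Amacrine cell markers were higher in every P5 cRGC pool (1196 to 1378 against 799 to 969 CPM, 10 of 16 listed), and so were astrocyte markers (12.4 to 52.0 against 1.01 to 7.67 CPM, 3 of 6 listed). In adults amacrine sums also ran higher in cRGC pools, at 3052 to 8003 against 1645 to 3381 CPM in Opn4-GFP (13 of 16 listed). In Opn4-Cre/GFP they were 2484 to 5254 against 1379 to 2411 CPM (14 of 16 listed). Rod sums were 113 to 1267 against 9.57 to 130 CPM in Opn4-GFP (5 of 12 listed). They were 244.5 to 973.7 against 39.3 to 348.7 CPM in Opn4-Cre/GFP (7 of 12 listed). None of the listed markers was at 0 in all libraries of a group. The P5 pools were thus close in ganglion cell and Müller glia markers but not in amacrine, astrocyte or vascular ones, and the adult pools were close in none of the ganglion cell, Müller glia, vascular, amacrine or rod sums. In pooled cells fewer cells of a type and less RNA per cell cannot be told apart.

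At P5, 6 of 60 listed members were higher in ipRGCs and 4 were lower, against a background of 1.93% of all 13677 genes higher and 2.27% lower. In Opn4-GFP adults, 3 of 54 were higher and 5 lower (background 1.76% and 3.39% of 11587 genes), and in Opn4-Cre/GFP adults 1 of 60 was higher and 2 lower (background 1.97% and 3.47% of 13357 genes). Counted in either direction, 16.7% of members were called at P5 where 4.2% of all genes were, 14.8% in Opn4-GFP adults where 5.15% were, and 5% in Opn4-Cre/GFP adults, close to the 5.44% of all genes. The families were chosen with earlier results of these data known. The study's text had already named Unc5a, Unc5d, Sema5a, Sema6a and Plxna4 as differing in these P5 libraries, so the shares are not an independent test of the families. The ipRGC and cRGC libraries did not overlap for 28 of 60 members at P5 (17.3% of all genes), for 4 of 54 in Opn4-GFP adults (3.86%) and for 12 of 60 in Opn4-Cre/GFP adults (11.9%). The median log2 fold change of the members was -0.16, -0.31 and -0.05 in the 3 comparisons, beside medians of 0.00, 0.06 and 0.03 over all genes, so the members as a group lay near 0. Without the adult libraries sequenced in a single run (Opn4-GFP pools 5 and 6, Opn4-Cre/GFP pool 4), 1 member was higher and 1 lower in Opn4-GFP adults (Epha6 and Plxnb1), and 1 was higher and 4 lower in Opn4-Cre/GFP adults. P5 pools 2 and 3 were also single-run and pool 1 has no record, so P5 was not refitted and run number differs in part with age. With the pool number as a block in limma, 8 members were higher and 5 lower at P5, 3 and 5 in Opn4-GFP adults, and 1 and 3 in Opn4-Cre/GFP adults.

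**Figure D1:**
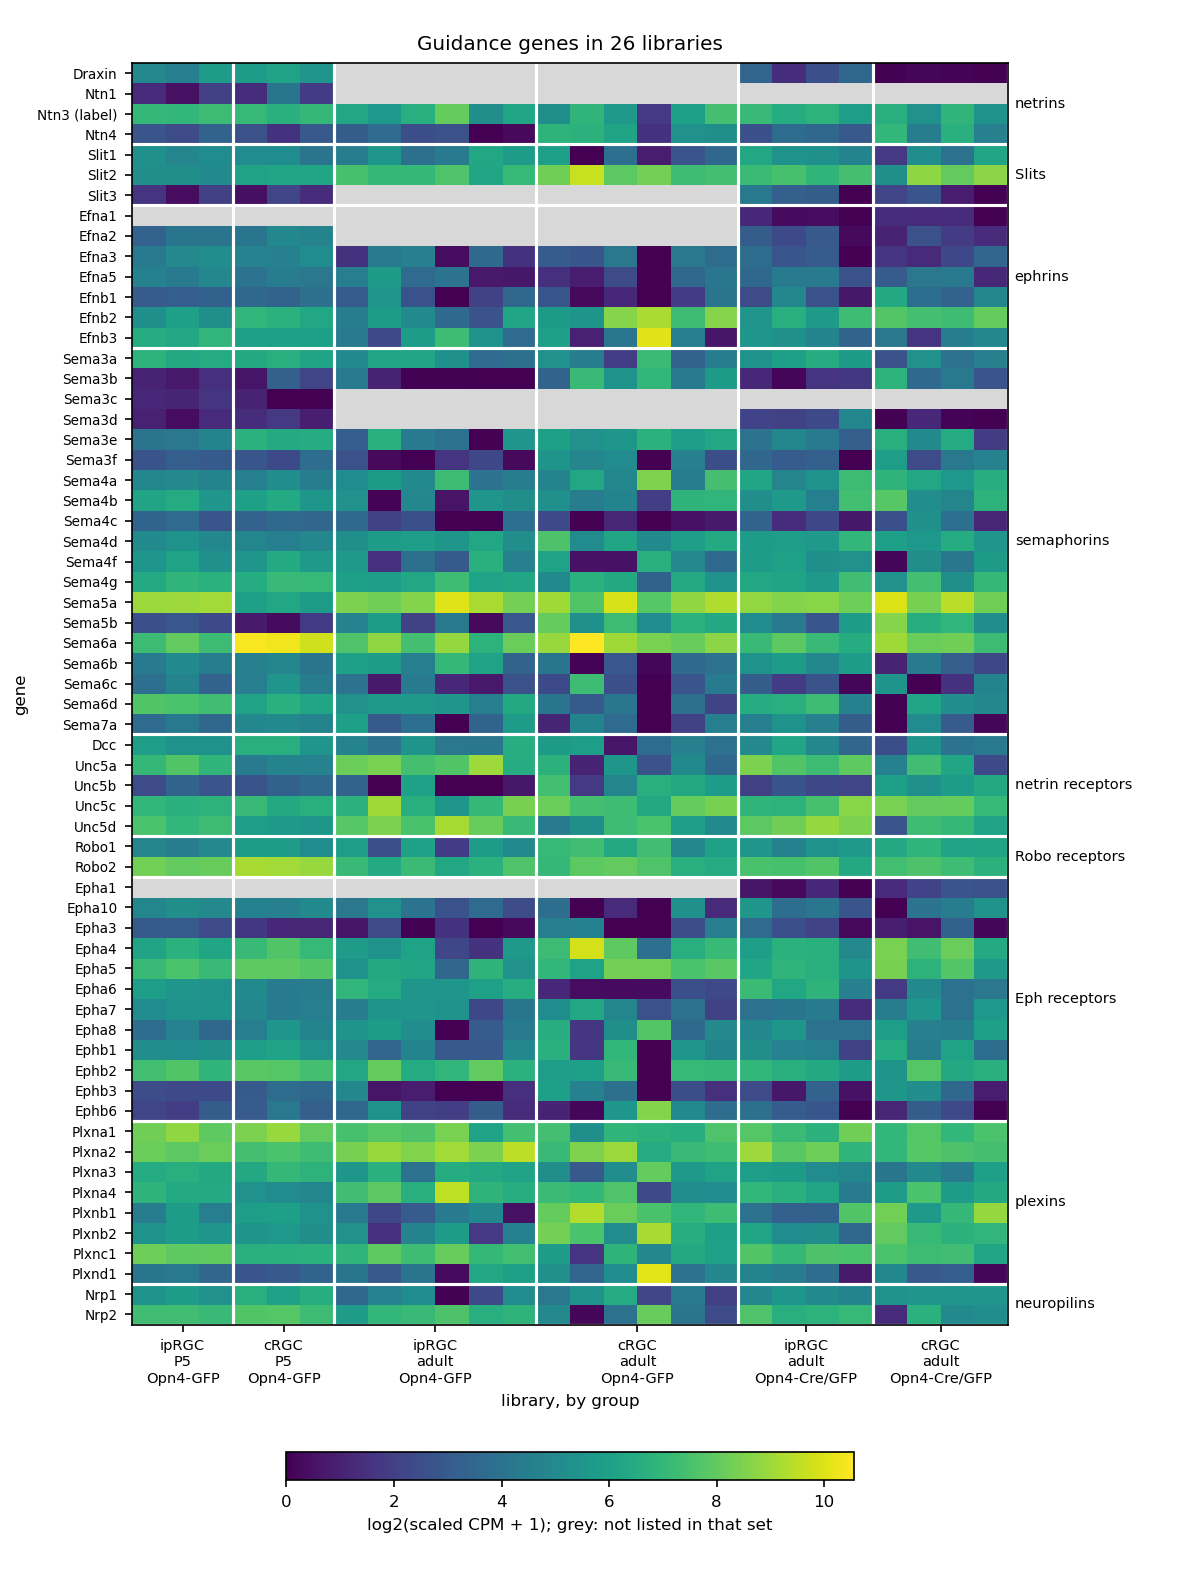
Colour gives log2(scaled CPM + 1) of each of the 62 members (rows, by family) in each of the 26 libraries (columns, by group), and grey marks a gene that the authors did not list for that age and line. Libraries of 1 group look alike at P5 and differ more from each other in adults, and Sema5a, Sema6a and Plxna2 are among the brightest rows.

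**Figure D2:**
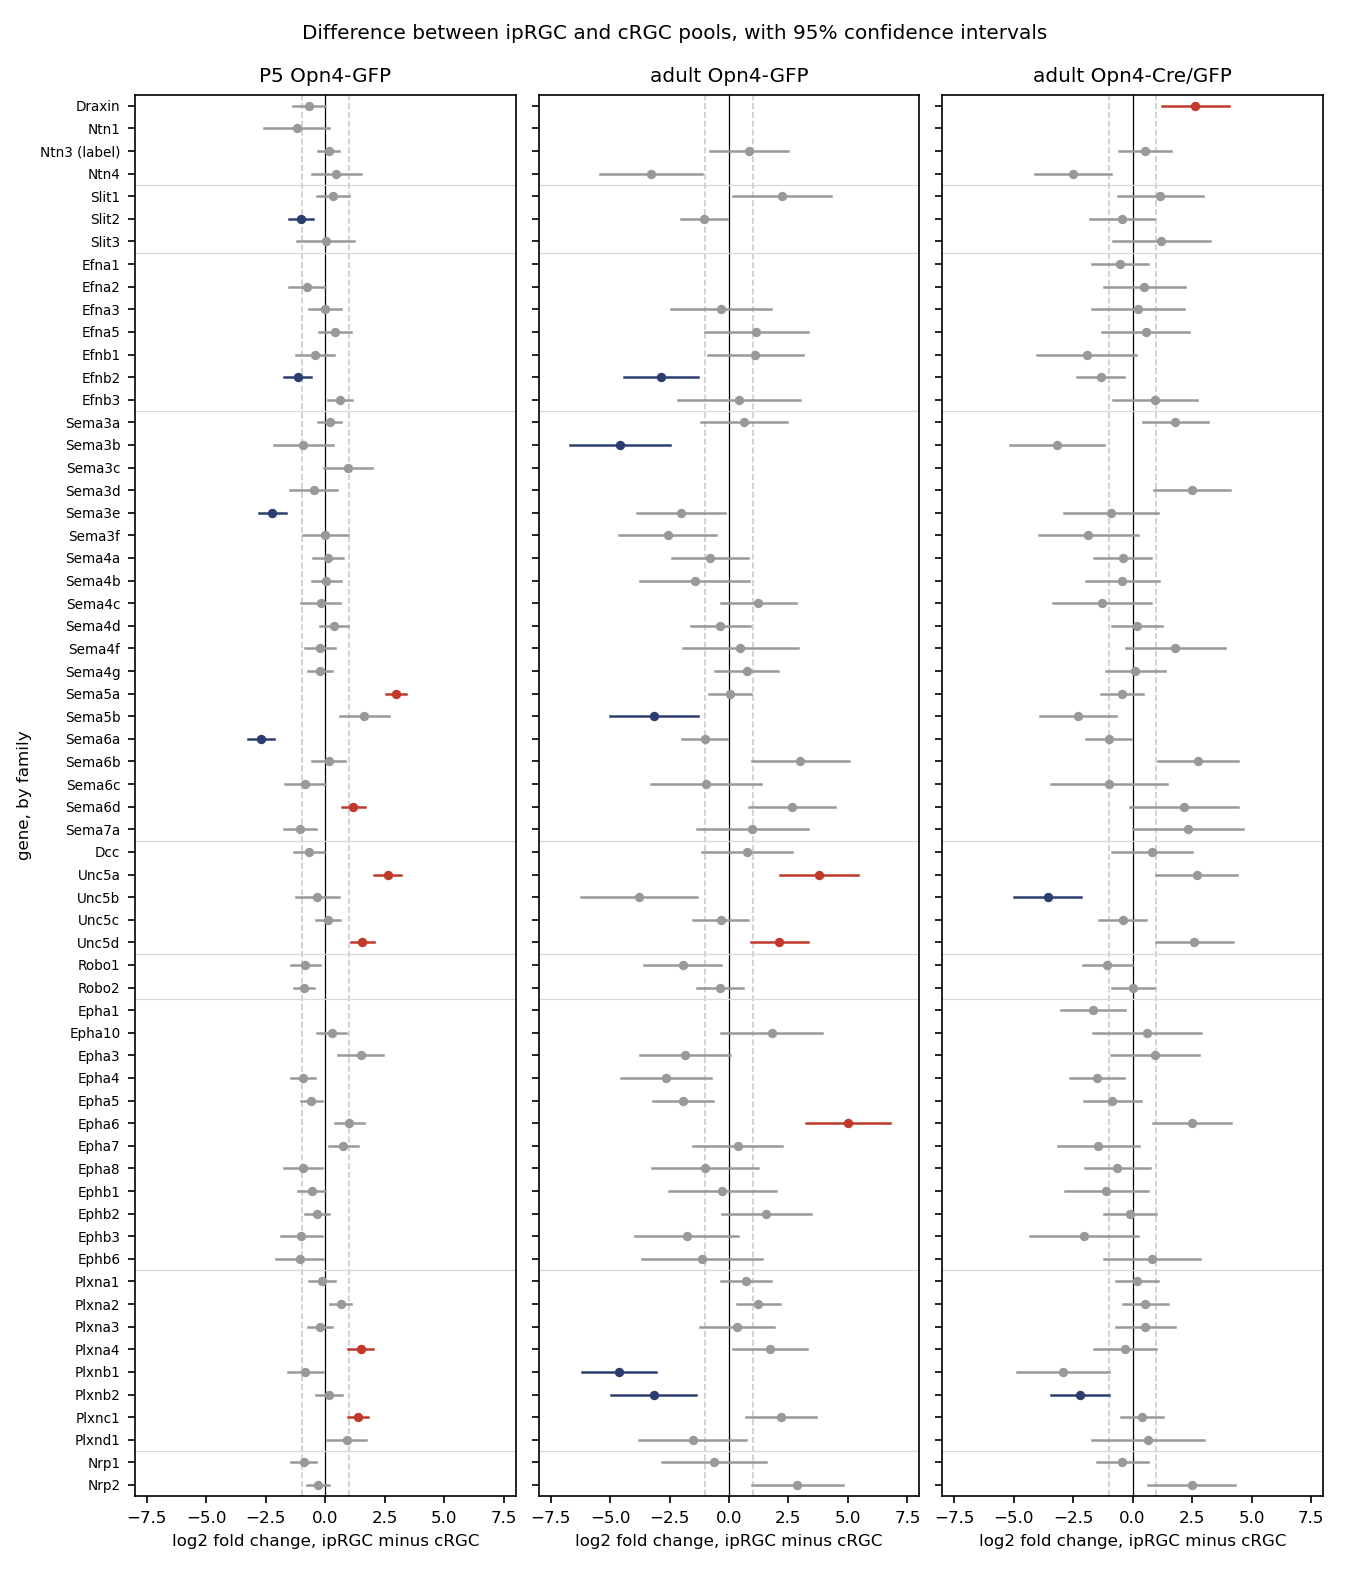
Points are limma log2 fold changes (ipRGC minus cRGC) of each member in P5 Opn4-GFP (3 and 3 pools), adult Opn4-GFP (6 and 6) and adult Opn4-Cre/GFP (4 and 4), with 95% confidence intervals as bars. Red marks members called higher in ipRGCs (6, 3 and 1), blue those called lower (4, 5 and 2), grey the rest, and dashed lines the log2 fold change of 1 in either direction.

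Upstream sequences are shown for 3 genes that carry the P5 result, Unc5a and Sema5a with the largest rises and Sema3e with one of the largest falls. Sema6a, which fell more than Sema3e, is not shown, so Sema3e does not stand for the members lower at P5. Each line holds the 250 bases before the annotated start, on the plus strand of GRCm38.p6 (RefSeq), at chr13:54949161-54949410, chr15:32244563-32244812 and chr5:14025026-14025275. Capitals mark GC boxes (GGGCGG or CCGCCC, where neighbouring matches can overlap) and the core of the Pou4f homeodomain site (ATTAAT, its own reverse complement).
Unc5a: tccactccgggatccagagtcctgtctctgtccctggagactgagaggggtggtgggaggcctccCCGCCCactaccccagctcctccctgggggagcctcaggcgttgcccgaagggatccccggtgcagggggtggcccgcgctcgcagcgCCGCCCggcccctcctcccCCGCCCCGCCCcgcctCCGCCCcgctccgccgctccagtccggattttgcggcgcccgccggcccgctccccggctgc
Sema5a: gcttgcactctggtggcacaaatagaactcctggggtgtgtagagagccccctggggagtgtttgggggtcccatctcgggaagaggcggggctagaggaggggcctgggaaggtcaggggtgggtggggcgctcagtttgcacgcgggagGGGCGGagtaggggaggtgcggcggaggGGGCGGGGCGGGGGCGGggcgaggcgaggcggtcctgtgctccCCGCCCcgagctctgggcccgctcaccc
Sema3e: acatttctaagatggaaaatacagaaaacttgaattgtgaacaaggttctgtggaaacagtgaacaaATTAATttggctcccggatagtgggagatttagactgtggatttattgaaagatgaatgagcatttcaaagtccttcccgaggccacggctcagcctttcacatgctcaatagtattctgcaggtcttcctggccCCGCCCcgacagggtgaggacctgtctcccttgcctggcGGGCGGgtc

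The windows of Unc5a and Sema5a were 76.8% and 72.0% G and C with 5 GC boxes each, and that of Sema3e was 48.0% with 2 GC boxes and 1 ATTAAT. The T-box half-site AGGTGTGA (or TCACACCT) was searched because Eomes and Tbx20, both T-box factors, mark ipRGCs. Of 61 members looked up (the row labelled Ntn3 was left out), 51 had a promoter entry. A GC box was present in 39 of these 51 and in 32.9% of 27025 promoters of the same length, which include those of non-coding genes. ATTAAT was found in 1 of 51, the Sema3e window, and in 4.52% of all promoters. AGGTGTGA was in 0 of 51 and in 1.14% of all promoters. A match describes these letters and not a binding site.

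Among the netrin receptors, Unc5a and Unc5d were higher in ipRGCs, the only members called higher in both P5 and adult Opn4-GFP. Both are netrin receptors of the repulsive kind. The Unc5a gene lies at chr13:55050772-55107379 and Unc5d at chr8:29757189-30329810 (mm9). At P5 the 3 ipRGC pools held 128, 207 and 118 CPM of Unc5a and the 3 cRGC pools 19.8, 25.0 and 24.5 CPM. Every ipRGC pool stood above every cRGC pool (limma, log2FC 2.62, SE 0.26, adjusted p = 1.3e-05). In Opn4-GFP adults, Unc5a ran from 90.6 to 512 (median 244) CPM in 6 ipRGC pools and from 1.02 to 107 (median 20.7) CPM in 6 cRGC pools. Those groups overlapped slightly, and the ipRGC pool was higher in 6 of 6 same-numbered pairs (log2FC 3.78, SE 0.79, adjusted p = 0.0036). Adult Opn4-Cre/GFP gave 349, 203, 147 and 244 CPM in ipRGCs and 23.6, 159, 73.8 and 4.15 CPM in cRGCs. Here 1 cRGC pool reached into the ipRGC range and the difference missed the threshold (log2FC 2.69, SE 0.80, adjusted p = 0.067), with a 95% interval of 0.99 to 4.38. With the edgeR quasi-likelihood test the adult Opn4-GFP call was lost (adjusted p = 0.078), as it was without the single-run libraries (adjusted p = 0.076).

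Unc5d followed the same order. The P5 pools held 187, 125 and 151 CPM in ipRGCs and 57.4, 50.9 and 46.8 CPM in cRGCs, without overlap (log2FC 1.55, SE 0.23, adjusted p = 0.00051). Adult Opn4-GFP ipRGC pools ran from 136 to 556 (median 245) CPM and cRGC pools from 19.8 to 190.0 (median 47.8) CPM, higher in ipRGCs in 6 of 6 pairs with overlapping groups (log2FC 2.12, SE 0.58, adjusted p = 0.031). Adult Opn4-Cre/GFP pools held 233, 303, 475 and 353 CPM and 5.79, 154, 128 and 66.1 CPM, without overlap but not past the threshold (log2FC 2.59, SE 0.76, adjusted p = 0.062). The adult Opn4-GFP call was the less firm: leaving out ipRGC pool 1, 2, 4 or 5 or cRGC pool 1, 5 or 6 moved its adjusted p to 0.057 to 0.081, and edgeR gave 0.15. General ganglion cell markers were also lower in adult cRGC than in ipRGC pools, at 789.8 to 2657 against 6037 to 7994 CPM in Opn4-GFP. In Opn4-Cre/GFP they summed to 965 to 2956 against 5703 to 8858 CPM. Their part in the adult Unc5a and Unc5d differences was not tested. Between ages and between lines neither gene was called in ipRGCs or in cRGCs. In ipRGCs the adult minus P5 log2 difference was 0.81 (SE 0.87, adjusted p = 0.91) for Unc5a and 0.89 (SE 0.60, adjusted p = 0.78) for Unc5d.

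Unc5b, the family member best known from blood vessels, was lower in ipRGCs in Opn4-Cre/GFP adults. Its ipRGC pools held 3.05, 5.67, 3.81 and 3.58 CPM and its cRGC pools 63.6, 37.7, 55.2 and 83.4 CPM, without overlap (log2FC -3.57, SE 0.66, adjusted p = 0.0042). This call held under every alternative tried. The adult Opn4-GFP pools ran from 0 to 64.7 (median 0.294) CPM in ipRGCs and from 2.41 to 163 (median 69.5) CPM in cRGCs, where ipRGC pool 3 alone stood high and the difference was not called (log2FC -3.78, SE 1.17, adjusted p = 0.063). At P5 all 6 pools were low, 4.45, 9.21 and 5.87 CPM against 5.67, 8.58 and 11.2 CPM (log2FC -0.34, SE 0.42, adjusted p = 0.87). As a group, the adult cRGC pools held more Unc5b and more Müller glia and vascular marker RNA, by the sums given above for both lines. Among the Opn4-Cre/GFP cRGC pools, pool 4 had the most Unc5b (83.4 CPM) with a Müller glia sum of 14292 CPM. Pool 1 had 63.6 CPM with the highest sum (48950 CPM). In Opn4-GFP, cRGC pool 1 was highest in both (163 and 30542 CPM). The part of these cells in the difference was not tested.

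Unc5c and Dcc were not called in any comparison. Unc5c was 113 ± 11.8 CPM (mean ± SD, n = 3) in P5 ipRGCs and 108 ± 29.4 CPM in cRGCs, 208 ± 187 and 214 ± 94.5 CPM (n = 6) in Opn4-GFP adults, and 204 ± 138 and 249 ± 86.4 CPM (n = 4) in Opn4-Cre/GFP adults, with 95% intervals of the log2 difference of -0.41 to 0.59, -1.502 to 0.79 and -1.41 to 0.58. The P5 interval leaves room for less than a log2 change of 1 in either direction, the adult ones do not. Dcc, the receptor for attraction, was 46.9 ± 9.93 and 79.7 ± 29.1 CPM at P5 (log2FC -0.69, SE 0.30, adjusted p = 0.3) and between 0.557 and 93.5 CPM over the 12 adult Opn4-GFP pools, where ipRGC pool 6 was far above its group.

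Of the ligands of this system, Draxin, a secreted protein that binds Dcc and netrin, was higher in ipRGCs in Opn4-Cre/GFP adults. The ipRGC pools held 10.001, 1.61, 4.88 and 10.5 CPM, from 410, 77, 151 and 103 reads, and the cRGC pools 0.0582, 0.144, 0.0762 and 0 CPM, from 2, 6, 2 and 0 reads. The groups did not overlap (log2FC 2.64, SE 0.66, adjusted p = 0.028), but the cRGC level was at the limit of detection, so the size of the fold rests on the pseudocount: the log2 fold change was 4.17 with 0.25 in place of 1 and 1.13 with 5 (adjusted p = 0.053). Leaving out ipRGC pool 1 or 3 or cRGC pool 1 or 3 also lost the call (adjusted p 0.07 to 0.089). These cRGC pools also held the lower general ganglion cell marker sums, whose part was not tested. At P5 both cell classes expressed Draxin, with 29.8, 22.3 and 55.4 CPM in ipRGCs and 53.9, 66.8 and 44.3 CPM in cRGCs (log2FC -0.68, SE 0.32, adjusted p = 0.37), and in Opn4-GFP adults it was not listed. Netrin-1 (Ntn1) was listed at P5 only, at 1.60 ± 1.34 and 6.76 ± 8.03 CPM. Ntn4, a laminin-binding netrin, held 4.88, 12.1, 10.3 and 6.75 CPM in adult Opn4-Cre/GFP ipRGCs and 126, 20.7, 103 and 23.1 CPM in cRGCs, without overlap and not called (log2FC -2.50, SE 0.75, adjusted p = 0.069), with log2FC -3.27, SE 1.04, adjusted p = 0.072 in Opn4-GFP adults and log2FC 0.47, SE 0.48, adjusted p = 0.82 at P5. DESeq2 called Ntn4 lower in ipRGCs in both adult comparisons (adjusted p = 0.0044 and 0.00041). The row labelled Ntn3 was even between groups, 134 ± 13.2 and 122 ± 15.7 CPM at P5.

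**Figure D3:**
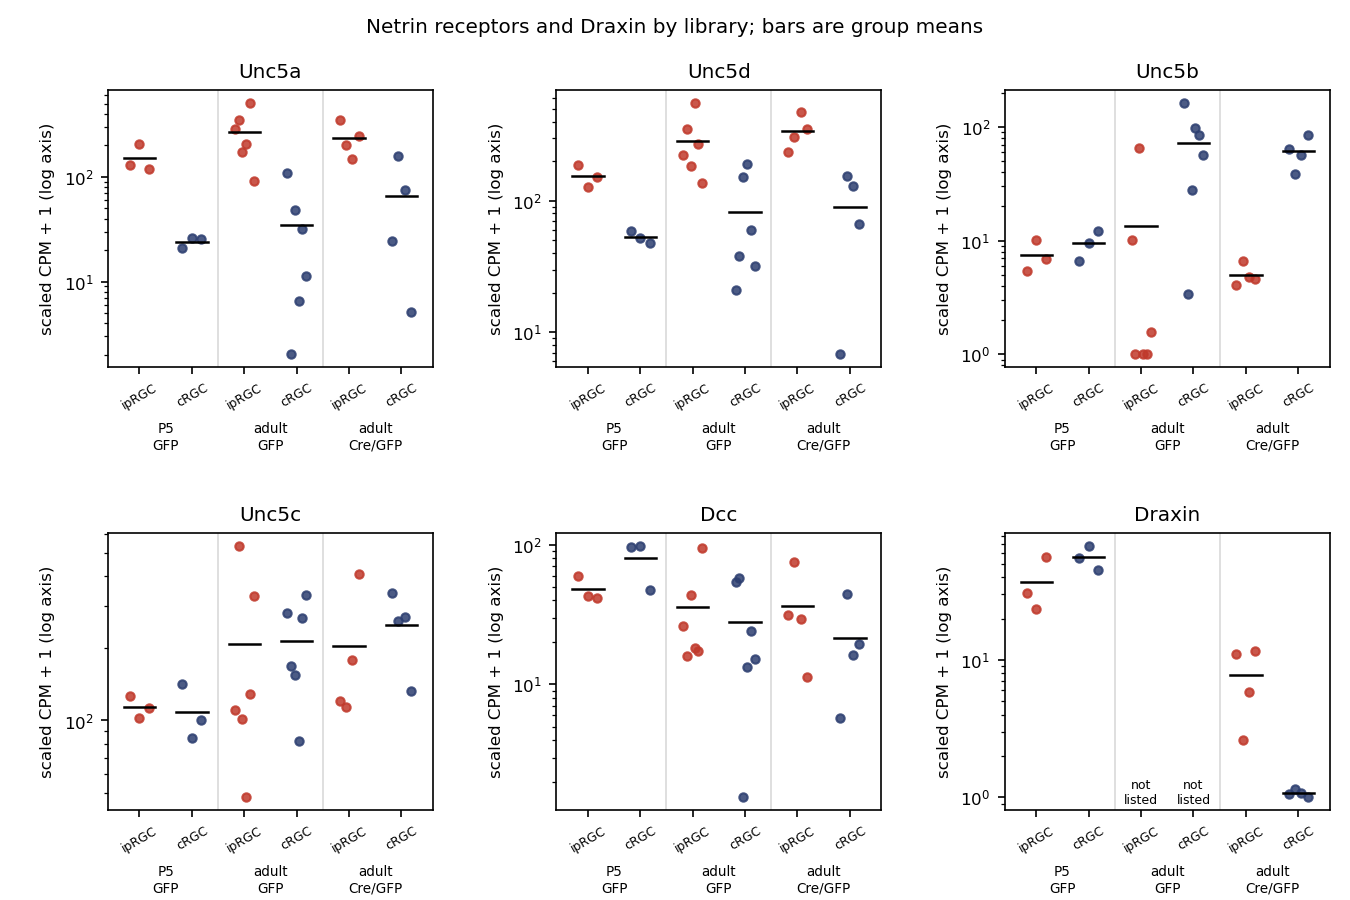
Each point is 1 library's scaled CPM plus 1 on a log axis for Unc5a, Unc5d, Unc5b, Unc5c, Dcc and Draxin, red for ipRGC and blue for cRGC pools, and black bars are group means. Unc5a and Unc5d sit higher in ipRGC pools at both ages, Unc5b higher in adult cRGC pools, and Draxin near 0 in the 4 adult Opn4-Cre/GFP cRGC pools.

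The semaphorins held the largest differences at P5. Sema5a, a transmembrane semaphorin that can attract or repel, was 7.84-fold higher in ipRGCs by the fitted value, and Sema6a, a transmembrane ligand and receptor of the A plexins, was 6.48-fold lower. The Sema5a gene lies at chr15:32174568-32626096 and Sema6a at chr18:47395252-47528524 (mm9). Sema5a measured 503, 506 and 537 CPM in the P5 ipRGC pools and 63.6, 76.5 and 56.0 CPM in the cRGC pools, ranges far apart (log2FC 2.97, SE 0.20, adjusted p = 4.1e-07). In Opn4-GFP adults it ran from 304 to 1047 (median 368) CPM in ipRGCs and from 205 to 948 (median 487) CPM in cRGCs, which overlapped throughout (log2FC 0.06, SE 0.43, adjusted p = 0.97, 95% interval -0.83 to 0.94). In Opn4-Cre/GFP adults the values were 456, 382, 404 and 296 CPM and 1011, 333, 695 and 304 CPM (log2FC -0.44, SE 0.41, adjusted p = 0.65). The P5 difference was not seen in adults, and the test of that change itself passed. On one CPM scale for both ages, the ipRGC minus cRGC difference changed by -2.87 (SE 0.65, adjusted p = 0.032) from P5 to adult, lower in the adult.

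The cRGC pools carried the called part of that change. On the joint scale, Sema5a was 492 ± 14.6 CPM in P5 ipRGCs (mean ± SD, n = 3) and 521 ± 281 CPM in adult Opn4-GFP ipRGCs (n = 6), a log2 difference of -0.05 (SE 0.46, adjusted p = 0.99). The cRGC pools rose from 62.2 ± 9.43 to 511 ± 283 CPM (log2 difference 2.82, SE 0.46, adjusted p = 0.00023), a rise called under every alternative. Müller glia sums were also higher in adult cRGC pools (12483 to 30542 CPM) than in P5 cRGC pools (485 to 580.5 CPM), and their part in the Sema5a rise was not tested. The test of the change between ages was less stable than its size. Leaving out any P5 pool, adult ipRGC pool 1, 2, 3 or 6, or adult cRGC pool 1, 5 or 6 moved its adjusted p to 0.051 to 0.12, with the size of the log2 difference between 2.75 and 2.99, and edgeR gave 0.065. In the main fit Sema5a was the only member of 54 past the threshold in that test. Of all 11236 genes 0.125% were higher there, 0.667% lower and 0.792% either.

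Sema6a held 149, 256 and 148 CPM in the P5 ipRGC pools and 1377, 1294 and 876 CPM in the cRGC pools (log2FC -2.70, SE 0.25, adjusted p = 6.2e-06). The lowest cRGC pool was above 3 times the highest ipRGC pool. In adults the direction was the same, but the groups overlapped: from 112 to 469 (median 239) CPM against a range from 271 to 1495 (median 455) CPM in Opn4-GFP (log2FC -1.01, SE 0.46, adjusted p = 0.24), and 139, 238, 138 and 91.7 CPM against 532, 278, 309 and 150.3 CPM in Opn4-Cre/GFP (log2FC -1.004, SE 0.45, adjusted p = 0.26). The difference between ages in this contrast was 1.72 (SE 0.69, adjusted p = 0.57), which does not show a change.

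Sema3e, a secreted ligand that binds Plxnd1 without a neuropilin, was the other semaphorin lower in P5 ipRGCs. It measured 15.7, 17.4 and 26.3 CPM in ipRGC pools and 106, 86.6 and 92.4 CPM in cRGC pools, without overlap (log2FC -2.23, SE 0.27, adjusted p = 6.4e-05). Adult values were scattered, from 0 to 101.2 (median 17.4) CPM against a range from 39.5 to 105 (median 60.6) CPM in Opn4-GFP (log2FC -2.02, SE 0.89, adjusted p = 0.23) and log2FC -0.91, SE 0.93, adjusted p = 0.69 in Opn4-Cre/GFP. Sema6d, a transmembrane ligand of Plxna1, was higher in P5 ipRGCs at 202, 189.7 and 159.5 CPM against 67.1, 104 and 75.2 CPM (log2FC 1.17, SE 0.23, adjusted p = 0.0049). In Opn4-GFP adults its ipRGC pools ran from 22.0 to 82.8 (median 47.3) CPM and its cRGC pools from 0 to 16.8 (median 10.5) CPM. These groups did not overlap either, yet the difference was not called (log2FC 2.64, SE 0.87, adjusted p = 0.085). Sema6d fell with age in cRGCs, from 78.1 ± 18.5 to 9.98 ± 7.43 CPM on the joint scale (log2 difference -3.35, SE 0.80, adjusted p = 0.0088), a call lost without P5 cRGC pool 2 or 3 (adjusted p 0.052 to 0.078) and with edgeR (0.057). The general ganglion cell marker sums of cRGC pools were also lower in adults than at P5, and their part in this fall was not tested.

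Sema3b, a secreted class 3 ligand, and Sema5b, a transmembrane partner of Sema5a, were lower in ipRGCs in Opn4-GFP adults. Sema3b ran from 0 to 18.6 (median 0.0528) CPM in ipRGC pools, of which pool 1 alone exceeded 2 CPM, and from 9.27 to 136 (median 46.9) CPM in cRGC pools (log2FC -4.59, SE 1.01, adjusted p = 0.0056). Adult Opn4-Cre/GFP gave 1.34, 0.146, 2.04 and 2.25 CPM and 112, 11.2, 18.02 and 5.78 CPM, without overlap and short of the threshold (log2FC -3.18, SE 0.92, adjusted p = 0.061). At P5 it was low in all pools, at most 8.35 CPM. Sema5b ran from 0.214 to 56.5 (median 12.3) CPM in adult Opn4-GFP ipRGCs and from 34.0 to 266 (median 93.4) CPM in cRGCs (log2FC -3.14, SE 0.89, adjusted p = 0.039), while at P5 the order was the other way, 4.89, 6.27 and 3.98 CPM in ipRGCs and 0.709, 0.229 and 2.46 CPM in cRGCs (log2FC 1.63, SE 0.49, adjusted p = 0.08). The test of this change between ages gave -4.70 (SE 1.47, adjusted p = 0.22) and was not called in the main fit. DESeq2 called it (-4.83, adjusted p = 0.039), as did limma with array weights (adjusted p = 0.012), and edgeR did not (adjusted p = 0.48). Sema5b had the largest age difference of any member in cRGCs, from 0.218 to 2.40 CPM at P5 to 32.8 to 289 CPM in the adult (log2 difference 5.58, SE 1.04, adjusted p = 0.001), and this call held under every alternative.

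With edgeR neither was called in Opn4-GFP adults (adjusted p = 0.21 for Sema3b and 0.21 for Sema5b), and Sema5b lost its call without ipRGC pool 3, 5 or 6 or cRGC pool 1, 3, 5 or 6 (adjusted p 0.074 to 0.11). With the pool number as a block Sema5b was not called either (adjusted p = 0.07). Sema3b also rose with age in cRGCs (log2 difference 3.55, SE 1.04, adjusted p = 0.038), and lost that call with edgeR (adjusted p = 0.35), at pseudocount 0.25 (0.097), without any single P5 pool, or without adult cRGC pool 2, 4 or 6 (adjusted p 0.052 to 0.29). Both genes were higher in the adult cRGC pools, which as a group held the high Müller glia sums. Among the Opn4-GFP cRGC pools, pool 1 had the highest Müller glia sum (30542 CPM), the highest Sema5b (266 CPM) and the lowest Sema3b (9.27 CPM). Pool 2 had the lowest Müller glia sum (12483 CPM) and the highest Sema3b (136 CPM). The part of these cells in the results was not tested.

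The remaining 13 semaphorins were not called in any cell comparison. Their log2FC ran from -1.07 to 0.96 at P5, -2.58 to 2.995 in Opn4-GFP adults and -1.87 to 2.76 in Opn4-Cre/GFP adults, over 13, 11 and 12 listed genes. Sema3d, a secreted class 3 ligand, was near the detection limit at P5 (0.948, 0.285 and 1.36 CPM in ipRGCs and 1.59, 2.40 and 0.854 CPM in cRGCs), not listed in Opn4-GFP adults, and 3.32, 3.09, 4.04 and 27.8 CPM against 0.0291, 1.27, 0.0762 and 0 CPM in Opn4-Cre/GFP adults, without overlap (log2FC 2.50, SE 0.76, adjusted p = 0.073). Its ipRGC mean there rests largely on pool 4. Sema4g and Sema4a, transmembrane class 4 members, had the highest mean CPM of the uncalled semaphorins over all listed libraries together, though at P5 Sema3a, Sema4b, Sema4d and Sema4f lay above Sema4a in mean. Sema4g was 103 ± 16.4 and 121 ± 24.8 CPM at P5 (log2FC -0.23, SE 0.23, adjusted p = 0.82), and Sema4a 27.8 ± 2.73 and 26.2 ± 7.40 CPM (log2FC 0.11, SE 0.30, adjusted p = 0.95). Sema3c was listed at P5 only. The others in this group were the secreted Sema3a and Sema3f and the membrane-bound Sema4b, Sema4c, Sema4d, Sema4f, Sema6b, Sema6c and Sema7a.

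Of the receptors of semaphorins, Plxna4 and Plxnc1 were higher in P5 ipRGCs. Plxna4, the receptor through which Sema6a acts in several neurons, held 115, 86.7 and 87.2 CPM in ipRGC pools and 39.7, 33.3 and 27.8 CPM in cRGC pools (log2FC 1.49, SE 0.25, adjusted p = 0.0014). Plxnc1, the receptor of Sema7a, held 300.0, 246 and 253 CPM and 97.3, 102 and 107 CPM (log2FC 1.37, SE 0.20, adjusted p = 0.00047). Neither gene's groups overlapped, and both calls held under every alternative. At the same age the ligands pointed the other way: Sema6a was lower in ipRGCs, and Sema7a was 13.5 ± 4.08 against 28.8 ± 3.38 CPM, short of the threshold (log2FC -1.07, SE 0.32, adjusted p = 0.084).

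In adults Plxna4 was not called. It ran from 92.7 to 734 (median 136) CPM in Opn4-GFP ipRGCs and from 4.12 to 197 (median 80.5) CPM in cRGCs (log2FC 1.72, SE 0.76, adjusted p = 0.23), with ipRGC pool 4 far above the rest, and in Opn4-Cre/GFP it was 124, 101.2, 74.6 and 19.2 CPM against 53.7, 186, 53.6 and 81.2 CPM (log2FC -0.31, SE 0.61, adjusted p = 0.86). Plxnc1 kept separate groups in Opn4-GFP adults, from 118 to 274 (median 159) CPM against a range from 2.04 to 115 (median 59.7) CPM, higher in ipRGCs in 6 of 6 pairs but not called (log2FC 2.17, SE 0.71, adjusted p = 0.081). In Opn4-Cre/GFP adults its pools overlapped, 204, 128, 196 and 188 CPM against 185, 151, 159 and 72.1 CPM (log2FC 0.39, SE 0.41, adjusted p = 0.7).

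**Figure D4:**
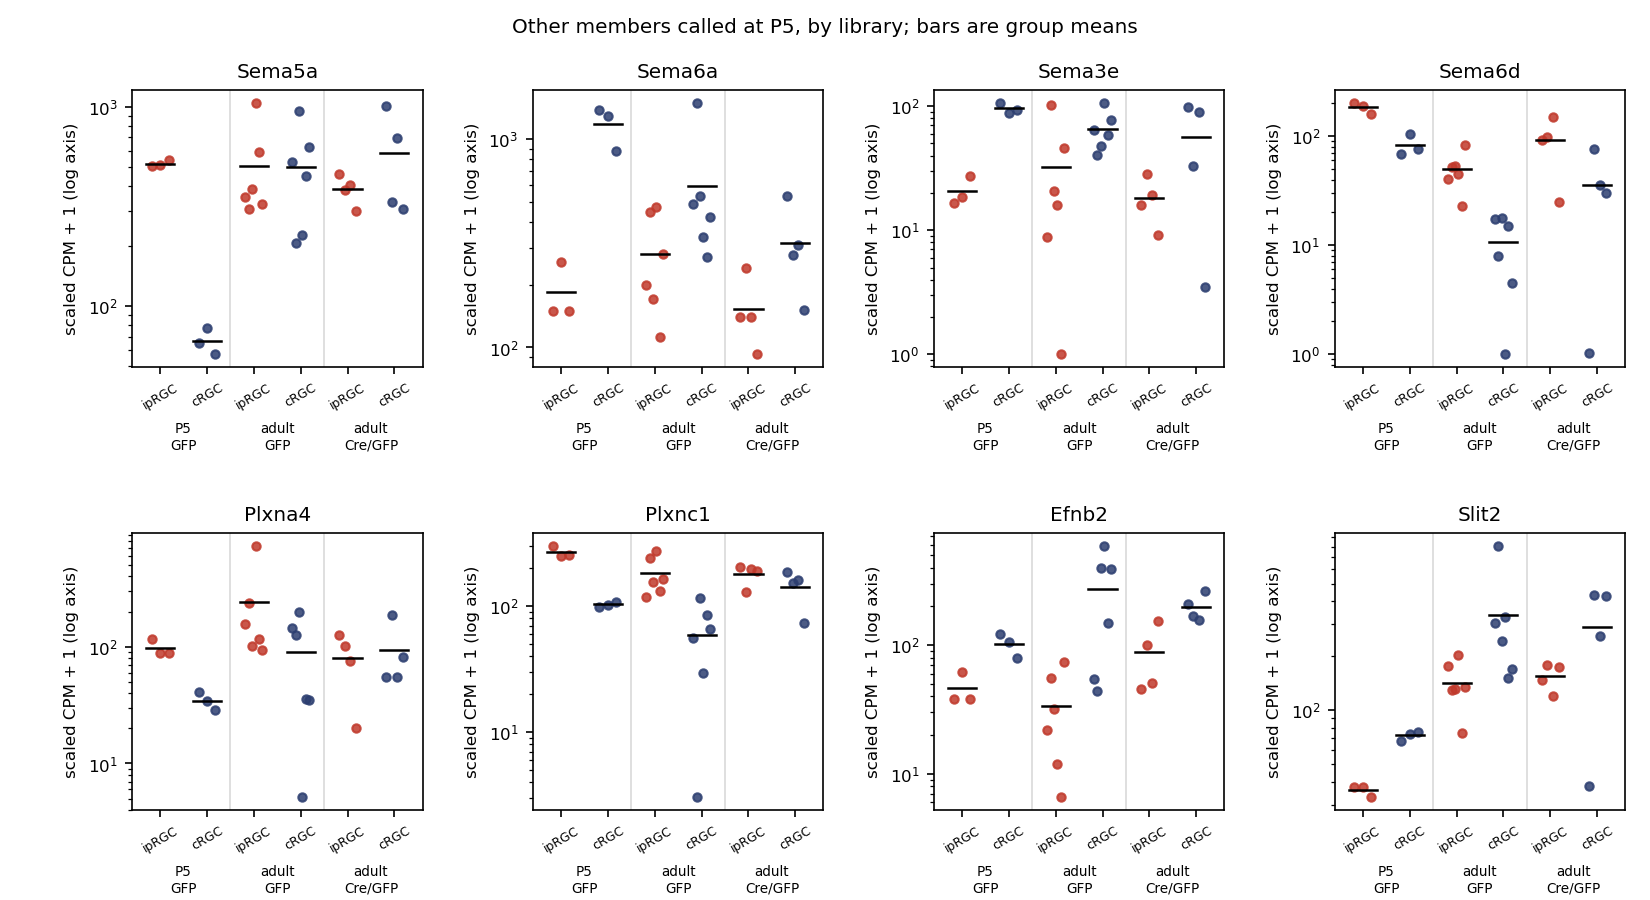
Scaled CPM plus 1 (log axis) of each library for the other 8 members called at P5, red for ipRGC and blue for cRGC pools, with black bars at group means. At P5 the 3 ipRGC and 3 cRGC points separate in every panel, while in adults the Sema5a points of both cell classes share one range.

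Plxnb1 and Plxnb2, receptors of class 4 semaphorins, were lower in adult ipRGCs, Plxnb1 in Opn4-GFP and Plxnb2 in both lines. Plxnb1 ran from 0.391 to 29.8 (median 13.6) CPM in adult Opn4-GFP ipRGC pools and from 122 to 646 (median 225) CPM in cRGC pools, without overlap (log2FC -4.62, SE 0.76, adjusted p = 0.00026), a call that held under every alternative. In Opn4-Cre/GFP adults the pools held 14.3, 8.47, 8.75 and 204 CPM and 314, 50.4, 128 and 465 CPM. There ipRGC pool 4 lay among the cRGC values and the difference was not called (log2FC -2.93, SE 0.91, adjusted p = 0.081), though it was with the pool number as a block in limma (adjusted p = 0.025) and not in edgeR with that block (adjusted p = 0.074). Plxnb2 ran from 1.70 to 55.3 (median 24.5) CPM against a range from 33.4 to 573 (median 142) CPM in Opn4-GFP (log2FC -3.17, SE 0.86, adjusted p = 0.029), and 72.1, 34.3, 35.6 and 10.5 CPM against 255, 141, 107 and 121 CPM in Opn4-Cre/GFP (log2FC -2.20, SE 0.57, adjusted p = 0.034).

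At P5 neither was called: Plxnb1 was 32.6 ± 19.6 and 54.2 ± 10.9 CPM (log2FC -0.84, SE 0.34, adjusted p = 0.26), and Plxnb2 47.2 ± 6.59 and 42.2 ± 6.28 CPM (log2FC 0.16, SE 0.25, adjusted p = 0.91). The Plxnb2 call was lost in Opn4-GFP without ipRGC pool 2 or 5 or cRGC pool 1 or 4 (adjusted p 0.064 to 0.083) and in Opn4-Cre/GFP without ipRGC pool 2, 3 or 4 or cRGC pool 1, 2 or 3 (adjusted p 0.056 to 0.1). EdgeR called it in neither (adjusted p = 0.085 and 0.097). As for Sema3b and Sema5b, the cRGC pools as a group held the high Müller glia sums, 12483 to 30542 CPM (Opn4-GFP) and 11800.0 to 48950.0 CPM (Opn4-Cre/GFP). The highest Opn4-GFP value of Plxnb1 (646 CPM) was in cRGC pool 2, with the lowest of those sums (12483 CPM). The part of those cells was not tested.

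**Figure D5:**
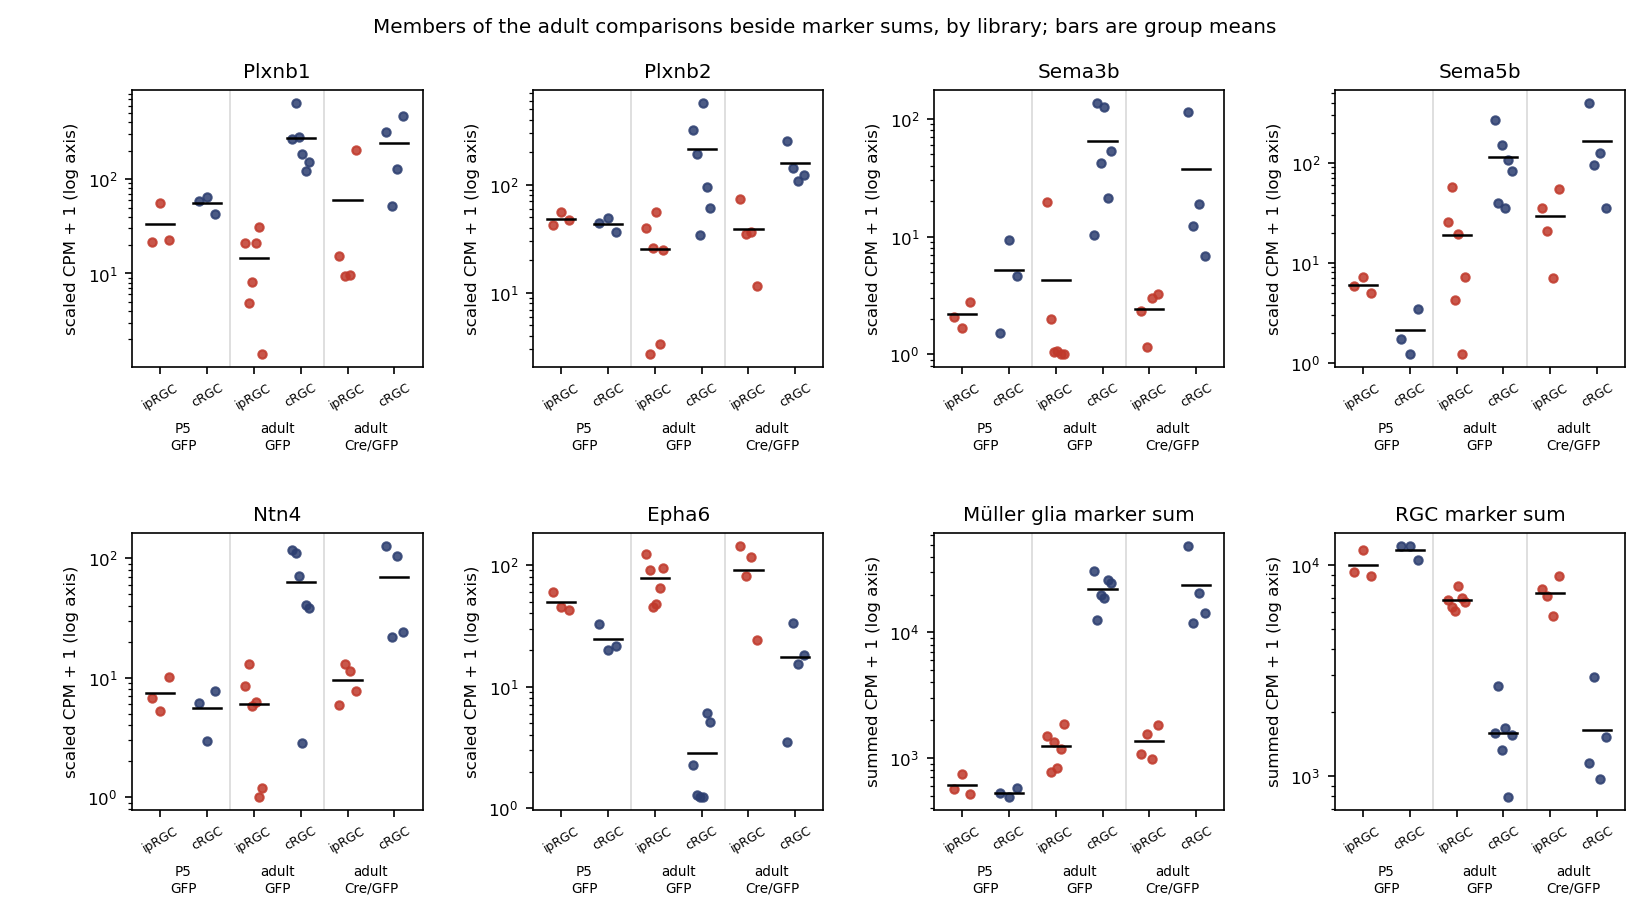
Each point is a library's scaled CPM plus 1 for Plxnb1, Plxnb2, Sema3b, Sema5b, Ntn4 and Epha6, or its summed CPM plus 1 for the Müller glia and general ganglion cell marker lists, all on log axes, red for ipRGC and blue for cRGC pools, with black bars at group means. Müller glia sums are 12483 to 30542 CPM in adult Opn4-GFP cRGC pools and 485 to 580.5 CPM in P5 cRGC pools, and Epha6 is the panel in which adult cRGC pools lie lowest.

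Plxna2 and Plxna1 had the highest mean CPM of the uncalled plexins over all listed libraries. Plxna2 was 266 ± 26.5 CPM in P5 ipRGCs and 171 ± 18.5 CPM in cRGCs, without overlap and short of the threshold (log2FC 0.64, SE 0.20, adjusted p = 0.11), and 471 ± 149 against 232 ± 164 CPM in Opn4-GFP adults (log2FC 1.24, SE 0.44, adjusted p = 0.12). Plxna3 and Plxnd1, receptors named above for Sema5a and Sema3e, were not called, with log2FC from -0.22 to 0.90 at P5, -1.53 to 0.35 in Opn4-GFP adults and 0.54 to 0.65 in Opn4-Cre/GFP adults. Plxna1 was near even at P5, 332 ± 102 and 364 ± 109 CPM (95% interval of the log2 difference -0.69 to 0.42). The neuropilins, co-receptors of class 3 semaphorins, were not called between cell classes. Nrp1 held 40.0, 54.6 and 39.5 CPM in P5 ipRGCs and 99.9, 64.6 and 92.9 CPM in cRGCs, without overlap and with an adjusted p just above 0.05 (log2FC -0.92, SE 0.25, adjusted p = 0.055). Nrp2 was 152 ± 9.16 and 192 ± 37.0 CPM at P5, and fell with age in cRGCs from 146 to 209 CPM to 0.149 to 259.8 CPM on the joint scale (log2 difference -3.52, SE 0.97, adjusted p = 0.026). The adult range takes in the P5 values because cRGC pool 4 alone was high. EdgeR gave that fall an adjusted p of 0.49, and it was lost without any P5 cRGC pool or adult cRGC pool 6 (adjusted p 0.054 to 0.13). The part of the lower general ganglion cell marker sums of adult cRGC pools in the Nrp2 fall was not tested.

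Among ephrins, Efnb2, a transmembrane ephrin of arteries and of the dorsal retina, was lower in ipRGCs at P5 and in Opn4-GFP adults. It measured 37.4, 61.2 and 37.4 CPM in P5 ipRGC pools and 121, 106 and 78.8 CPM in cRGC pools, without overlap (log2FC -1.17, SE 0.26, adjusted p = 0.015). In Opn4-GFP adults it ran from 5.56 to 73.6 (median 25.8) CPM against a range from 43.2 to 592 (median 269.6) CPM, with overlap (log2FC -2.86, SE 0.75, adjusted p = 0.023), and in Opn4-Cre/GFP adults it was 44.4, 100.2, 50.3 and 153 CPM against 209, 167, 155 and 264 CPM, without overlap and not called (log2FC -1.33, SE 0.47, adjusted p = 0.13). The direction held in all 3 comparisons. The P5 call was lost without ipRGC pool 1 or 3 or cRGC pool 1 or 2 (adjusted p 0.055 to 0.11), and the adult Opn4-GFP call without ipRGC pool 5 or cRGC pool 3, 4 or 6 (adjusted p 0.05 to 0.075). At P5 Müller glia sums were close in the cell classes, while vascular sums reached 302 CPM in cRGC pool 3 and at most 13.8 CPM in ipRGC pools, and amacrine sums were higher in every cRGC pool. Of the P5 cRGC pools that pool 3 had the lowest Efnb2. In adults Müller glia and vascular sums were higher in every cRGC pool, and the part of these cells in the differences was not tested. Efnb3 and Efna5, the uncalled ephrins with the highest mean CPM over all listed libraries (at P5 Efna3 lay above Efna5 in mean), were 97.5 ± 21.8 and 62.7 ± 0.586 CPM (log2FC 0.61, SE 0.23, adjusted p = 0.22), and 23.9 ± 4.17 and 17.8 ± 3.23 CPM (log2FC 0.40, SE 0.31, adjusted p = 0.73) at P5. In Opn4-GFP adults the Efnb3 values of cRGC pools ran from 0.567 to 1078 (median 19.3) CPM, the highest of them in pool 4. The uncalled ephrins (Efna1, Efna2, Efna3, Efna5, Efnb1 and Efnb3) had log2FC from -0.77 to 0.61 at P5, -0.34 to 1.15 in Opn4-GFP adults and -1.94 to 0.95 in Opn4-Cre/GFP adults.

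Epha6, a receptor of the A ephrins, was the Eph receptor that separated adult cells. In Opn4-GFP adults the ipRGC pools ran from 44.5 to 121 (median 76.7) CPM, and the cRGC pools from 0.229 to 5.04 (median 0.776) CPM, from 48, 4, 4, 2, 23 and 36 reads. No cRGC pool came near the ipRGC range (log2FC 4.999, SE 0.86, adjusted p = 0.00049), and the call held under every alternative. With these low cRGC counts the size of the fold depends on the pseudocount, a log2 fold change of 5.81 with 0.25 and 3.54 with 5. Adult Opn4-Cre/GFP pools held 143, 79.6, 115 and 23.3 CPM and 2.50, 32.2, 14.3 and 17.2 CPM. The ipRGC pool was higher in 4 of 4 pairs, but ipRGC pool 4 lay among the cRGC values and the difference was not called (log2FC 2.50, SE 0.77, adjusted p = 0.079).

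At P5 Epha6 was 58.8, 43.8 and 41.9 CPM in ipRGCs and 31.5, 18.9 and 20.7 CPM in cRGCs, without overlap (log2FC 1.01, SE 0.29, adjusted p = 0.064). With the pool number as a block, for pools sorted in parallel, the P5 difference was called (adjusted p = 0.0099), as were those of Epha3 (0.047, higher) and Sema7a (0.026, lower). EdgeR with the same block called Epha6 (adjusted p = 0.013) and Sema7a (adjusted p = 0.031) and not Epha3 (adjusted p = 0.086). Epha6 fell with age in cRGCs from 22.5 ± 6.001 to 1.92 ± 2.21 CPM on the joint scale (log2 difference -3.32, SE 0.80, adjusted p = 0.0095), a call lost without P5 cRGC pool 1 or 3 (adjusted p 0.053 to 0.089). In ipRGCs it was 46.1 ± 9.59 CPM at P5 and 81.4 ± 35.1 CPM in adults (log2 difference 0.72, SE 0.80, adjusted p = 0.91). The difference between the 2 age effects gave 4.04 (SE 1.12, adjusted p = 0.12) and was not called in the main fit. It was called with DESeq2 (4.35, adjusted p = 0.016) and with array weights in limma (adjusted p = 0.0057), and not with edgeR (adjusted p = 0.32). General ganglion cell markers were lower in adult cRGC pools than in P5 cRGC pools or adult ipRGC pools. Their part in the Epha6 fall and in the adult Epha6 differences was not tested.

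The other Eph receptors were not called. Epha4, which binds both ephrin classes, was 70.2, 104 and 73.6 CPM in P5 ipRGCs and 142, 203 and 135 CPM in cRGCs. Its adjusted p was under 0.05, with a log2 fold change just inside 1 (log2FC -0.94, SE 0.24, adjusted p = 0.034). In Opn4-GFP adults it ran from 1.93 to 69.2 (median 45.0) CPM against a range from 13.3 to 921 (median 142) CPM (log2FC -2.64, SE 0.92, adjusted p = 0.11), and was called with the pool number as a block in limma (adjusted p = 0.041) and not in edgeR with that block (adjusted p = 0.09). Epha5 was 154 ± 26.6 and 231 ± 18.7 CPM at P5 (log2FC -0.59, SE 0.21, adjusted p = 0.17). Epha1 was listed in Opn4-Cre/GFP adults only. Over the 11 Eph receptors listed at P5 the log2 fold changes ran from -1.07 to 1.48 with a median of -0.58, and in Opn4-GFP adults from -2.64 to 4.999 with a median of -1.01.

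Slit2, a secreted repellent that keeps ganglion cell axons in their path, was lower in P5 ipRGCs and was the only member that the main fit called with age in ipRGCs. The P5 pools held 36.3, 36.5 and 31.8 CPM in ipRGCs and 66.4, 72.8 and 74.7 CPM in cRGCs, tight groups without overlap (log2FC -1.01, SE 0.24, adjusted p = 0.018). The fold lies at the limit used, and the call was lost at a pseudocount of 5 (log2FC -0.94) and without ipRGC pool 1 or 3 or any cRGC pool (adjusted p 0.047 to 0.071, with absolute log2FC between 0.95 and 1.06). In adults the values were from 73.2 to 199.8 (median 132) CPM against a range from 149 to 809.6 (median 271) CPM in Opn4-GFP (log2FC -1.06, SE 0.47, adjusted p = 0.23) and 146, 177, 119 and 172 CPM against 36.9, 429, 256 and 424 CPM in Opn4-Cre/GFP (log2FC -0.43, SE 0.63, adjusted p = 0.8).

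From P5 to adult, Slit2 rose in both cell classes. On the joint scale ipRGC pools went from 30.1 to 35.3 CPM to 73.7 to 202 CPM, without overlap (log2 difference 2.05, SE 0.51, adjusted p = 0.041), and cRGC pools from 61.7 to 73.0 CPM to 152 to 829 CPM (log2 difference 2.06, SE 0.51, adjusted p = 0.012). The difference between these rises was -0.01 (SE 0.72, adjusted p = 0.9997). In ipRGCs 1 of 54 members was called higher with age and 0 lower (0 lower with edgeR or DESeq2 too), against 0.837% and 0.303% of all 11236 genes. At an unadjusted p under 0.05 in either direction 4 of 54 members passed, where 8.47% of all genes did. With array weights 4 members were called lower, among them Sema6d (log2 difference -1.85, adjusted p = 0.021) and Robo2 (-1.09, adjusted p = 0.027), so the count of falls depends on the weighting. In cRGCs 4 were higher and 4 lower, against 3.32% and 2.88% (6.2% in either direction). The median over all genes was -0.24 in ipRGCs and -0.34 in cRGCs, so age differences are read against a general shift, which the DESeq2 scaling put at 0.18 and 0.33. The ipRGC call was close to the threshold: it was lost with edgeR (adjusted p = 0.074) and without any P5 pool, adult ipRGC pool 1, 2, 3, 4 or 6, or adult cRGC pool 1 or 3 (adjusted p 0.051 to 0.27). The cRGC call was lost without any P5 cRGC pool (adjusted p 0.053 to 0.077).

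Slit1 and Slit3 were not called. Slit1 was 33.1 ± 5.57 and 27.5 ± 10.2 CPM at P5 (log2FC 0.32, SE 0.33, adjusted p = 0.82) and Slit3 1.81 ± 1.40 and 1.84 ± 1.68 CPM. Robo2, the main Slit receptor of ganglion cells, measured 318, 256 and 272 CPM in P5 ipRGC pools and 569.8, 547 and 483 CPM in cRGC pools. The groups were well apart and the adjusted p under 0.05, but the log2 fold change stayed inside 1 (log2FC -0.92, SE 0.20, adjusted p = 0.011). In Opn4-Cre/GFP adults the values were 184, 177, 204 and 80.5 and 165, 192, 152 and 109 CPM (95% interval -0.88 to 0.90). Robo2 fell with age in cRGCs, from 507 ± 30.9 to 171 ± 71.6 CPM on the joint scale (log2 difference -1.67, SE 0.44, adjusted p = 0.018), a call lost without any P5 cRGC pool (adjusted p 0.08 to 0.11). Over the same pools general ganglion cell markers summed to 10532 to 12353 CPM at P5 and 789.8 to 2657 CPM in adults. Their part in the Robo2 fall was not tested. In ipRGCs Robo2 went from 269.7 ± 34.6 to 133 ± 48.9 CPM (log2 difference -1.09, SE 0.44, adjusted p = 0.4). Robo1 was 25.7 ± 5.12 and 47.5 ± 11.8 CPM at P5 (log2FC -0.85, SE 0.29, adjusted p = 0.15) and, without overlap, 45.4, 24.0, 41.8 and 51.1 and 82.4, 119.6, 67.0 and 70.4 CPM in Opn4-Cre/GFP adults (log2FC -1.06, SE 0.48, adjusted p = 0.27).

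Between the reporter lines, no member was called in adult ipRGCs or in adult cRGCs with limma, edgeR or DESeq2. At an unadjusted p under 0.05 limma gave 1 of 54 members in ipRGCs (Plxna2, chosen after its value was seen, -1.05 (SE 0.46, adjusted p = 0.99997)) and 5 in cRGCs, where 2.25% and 5.02% of all genes passed. Of all 11441 genes 0% were called in ipRGCs and 0.0262% in cRGCs, so few genes of any kind passed. For Unc5a the ipRGC difference between lines was -0.26 (SE 0.88, adjusted p = 0.99997) and for Unc5d 0.16 (SE 0.69, adjusted p = 0.99997). The test of whether the ipRGC minus cRGC difference changed between lines called 0 of 54 members with limma, edgeR and DESeq2 (3 at an unadjusted p under 0.05 with limma, where 2.38% of all genes passed), so an Opn4-GFP call that was missed in Opn4-Cre/GFP, or the reverse, does not show that the lines differ. Marked cell types, library make-up and strain background as labelled differ between the lines together and cannot be told apart. The age, line and cell comparisons share the adult Opn4-GFP pools.

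Levels of different genes can be set side by side per kilobase of exon, on one CPM scale over all 26 libraries and for members listed in every age and line. In P5 ipRGCs the most abundant members were Sema5a at 41.7 ± 1.14 CPM per kb (mean ± SD, n = 3), Plxnc1 at 37.0 ± 4.68, Plxna1 at 35.9 ± 11.02 and Unc5a at 35.4 ± 11.3, neighbours whose SDs overlap. In P5 cRGCs the order began with Sema6a at 132 ± 29.7 CPM per kb, well above Plxna1 at 39.5 ± 11.5 and Robo2 at 31.7 ± 2.59. Unc5a led in both adult ipRGC groups, at 66.6 ± 36.3 CPM per kb in Opn4-GFP (n = 6) and 55.2 ± 20.3 in Opn4-Cre/GFP (n = 4). The next member lay within its SD in each, Sema5a in Opn4-GFP (42.4 ± 22.0) and Unc5d in Opn4-Cre/GFP (37.0 ± 10.8). In adult cRGCs the order began with Sema6a in Opn4-GFP (70.2 ± 50.0) and with Sema5a in Opn4-Cre/GFP (48.5 ± 28.1).

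Outside the named families, a list of 30 other guidance ligands, receptors and co-receptors gave 2 higher and 2 lower of 28 tested at P5, 3 and 4 of 27 in Opn4-GFP adults, and 4 and 5 of 28 in Opn4-Cre/GFP adults, with median log2 fold changes of -0.11, 0.15 and -0.21, where 4.2%, 5.15% and 5.44% of all genes were called in either direction. The adhesion molecule Chl1, a co-receptor for class 3 semaphorins, was higher in ipRGCs in all 3 comparisons (P5: 643 ± 90.5 against 317 ± 31.8 CPM, log2FC 1.01, adjusted p = 0.0063). Its relative L1cam was higher in both adult comparisons (Opn4-Cre/GFP: 866 ± 180.2 against 198 ± 103 CPM, log2FC 2.22, adjusted p = 0.0027). Ptch1 and Cdon, receptor and co-receptor of Sonic hedgehog, were lower in both adult comparisons (Ptch1 in Opn4-GFP: 55.4 ± 60.0 against 601 ± 154 CPM, log2FC -4.04, adjusted p = 8.5e-05). The adult cRGC pools as a group held the high Müller glia sums, whose part was not tested. A list of 58 intracellular effectors gave 1 higher and 1 lower of 57 at P5, 1 and 3 of 55 in Opn4-GFP adults and 1 and 3 of 57 in Opn4-Cre/GFP adults, shares near those background values, so that nothing is read from the list as a whole. Mical2, of the family of oxidoreductases that carry plexin signals to actin, was the effector higher in P5 ipRGCs (32.7 ± 7.95 against 7.96 ± 1.87 CPM, log2FC 1.90, adjusted p = 0.0029), and Srgap1, a GTPase-activating protein that binds Robo receptors, was the one higher in both adult comparisons (Opn4-GFP: 308 ± 169 against 39.3 ± 39.8 CPM, log2FC 3.32, adjusted p = 0.001). Adult cRGC pools also had the lower general ganglion cell marker sums. The part of this in the adult differences of Chl1, L1cam and Srgap1 was not tested.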

How the data were processed

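Retinal cells were pooled over mice, enriched for Thy1, sorted on GFP and profiled by RNA-seq. The authors clipped and quality-filtered reads, aligned them to mm9 with TopHat2, counted reads per gene with HTSeq (htseq-count), scaled library sizes with edgeR and dropped genes that were below 1 CPM in most of the samples compared. The deposited values are such scaled CPM, a normalized signal, separately for Opn4-GFP pools at P5, Opn4-GFP adults and Opn4-Cre/GFP adults. They are whole multiples of 1 read in each library (100% of values within 0.01 of a whole number), so the read counts behind the signal deposited by the authors were recovered and gave 3927386 to 44871619 reads per library. A second deposited sheet of read totals (9404548 to 97241362 quality-filtered read counts in 24 of 26 libraries, per the file headers) was used for depth only, without its 2 entries that match no sample. Columns with the authors' own fold changes and p-values were not used.

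limma 3.58.1 in R 4.3.3 (lmFit, then eBayes with trend) was fitted to log2(scaled CPM + 1) of all listed genes, within each age and line for ipRGC against cRGC, and with Benjamini-Hochberg adjustment over all of them. The pseudocount understates fold changes of low genes. Contrasts of age and of reporter line, and their interactions with cell class, used the recovered reads of 11236 and 11441 genes listed in both groups, as CPM on one TMM scale (edgeR 4.0.16). The recovered reads were also tested with the edgeR quasi-likelihood test and DESeq2 1.42.0 as alternatives, beside other pseudocounts, no TMM scaling, a minimum mean of 5 CPM, the pool number as a block, array weights, and leaving out single libraries or single-run libraries. The code was tested on simulated data.

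By the study's account each replicate was a single pool of purified ganglion cells that was split into ipRGCs and cRGCs. Its figure numbers these as pairs, and ipRGC and cRGC libraries carry the same pool numbers in the sample labels. Deviations of same-numbered pools from their group means correlated across genes at 0.135 to 0.324 in the 3 P5 pairs, and at 0.016 to 0.125 and 0.052 to 0.268 in the adult Opn4-GFP and Opn4-Cre/GFP pairs. The main fit, without the block, follows the design set for each result but leaves this pairing out, so its p-values treat the libraries as unpaired. The blocked value stands beside a result where it changes the call.

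Members and gene lists were chosen with earlier results of these data known. Genes named are the members called in a comparison, those discussed in the study's text on guidance genes and the most abundant uncalled members of each family (by mean CPM, at most 2 a family), with the others given by name and range. Symbols come from the table, and 1885 of 1911 blank ones were filled from the mm9 annotation. Promoters come from RefSeq (GRCm38.p6).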

Additional observations from a re-analysis of the deposited data

Results flagged for a closer look

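In groups of 4 or 6 libraries, 19 of 138 groups of named members held a library whose distance from its nearest neighbour was too large a share of the group's range (Dixon's test at 95%). For normally distributed values chance gives about 1 in 20 groups. The test was run on scaled CPM without logs, and every flagged library was the highest of its group. That rate therefore need not hold here, and no excess of flagged groups is read from the count. All groups of that size were adult ones, since the P5 groups of 3 were not checked. Adult Opn4-GFP ipRGC pool 4 held 5 of them: Plxna4 at 734 CPM, Efnb3 at 155 CPM, Sema4a at 148 CPM, Sema4g at 152 CPM and the row labelled Ntn3 at 263 CPM, each the highest of its 6 pools. In the same library 1893 of 11587 listed genes were at 0, more than in the other ipRGC pools of that line.

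Adult Opn4-GFP cRGC pool 2 was highest for Sema6a (1495 CPM), Epha4 (921 CPM), Slit2 (809.6 CPM) and Plxnb1 (646 CPM). Pool 4 of the same group, with 2530 genes at 0, was highest for Efnb3 (1078 CPM, the next pool being at 61.3 CPM) and Nrp2 (269 CPM, next 30.2 CPM), and pool 1 for Slit1 (60.2 CPM). Among the ipRGC pools of that line, pool 6 stood apart for Dcc (93.5 CPM), pool 3 for Unc5b (64.7 CPM) and pool 1 for Sema3b (18.6 CPM).

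In Opn4-Cre/GFP adults, ipRGC pool 4 was highest for Plxnb1 (204 CPM, next 14.3 CPM) and Sema3d (27.8 CPM, next 4.04 CPM), cRGC pool 1 for Sema3b (112 CPM) and cRGC pool 2 for Sema3d (1.27 CPM). The ipRGC minus cRGC difference of Sema5a was lower in Opn4-GFP adults than at P5 by the interaction test (log2 difference -2.87, limma, adjusted p = 0.032).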

How the results depend on the processing

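Of the 31 calls given above, 13 held under every alternative: 8 at P5 (Unc5a, Unc5d, Plxna4, Plxnc1, Sema3e, Sema5a, Sema6a and Sema6d), Epha6 and Plxnb1 in Opn4-GFP adults, Unc5b in Opn4-Cre/GFP adults, and the cRGC age rises of Sema5a and Sema5b. No called value changed sign. The P5 count of lower members was 4, and 7 without TMM scaling. In Opn4-GFP adults, 3 higher and 5 lower members became 1 and 2 with edgeR, 1 and 1 without single-run libraries, and 2 and 8 with DESeq2. In Opn4-Cre/GFP adults, 1 higher and 2 lower became 3 and 5 with DESeq2, 4 and 2 without TMM scaling, 3 and 2 at pseudocount 5, 1 and 1 with edgeR, and 1 and 4 without single-run libraries. With age in ipRGCs, 1 higher and 0 lower became 0 higher with edgeR and 4 lower with array weights. In cRGCs, 4 and 4 became 9 higher with DESeq2, 2 lower with edgeR and 10 lower with array weights. The age interaction, 0 higher and 1 lower, gave 1 and 2 with DESeq2, 2 and 4 with array weights, and 0 lower with edgeR or without TMM scaling. The cause was not tested.

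Leaving out 1 library moved the count higher to 6 to 7 and lower to 2 to 7 at P5, lower to 2 to 7 in Opn4-GFP adults, and higher to 0 to 6 and lower to 1 to 6 in Opn4-Cre/GFP adults. With age it gave 0 to 1 higher in ipRGCs, 2 to 4 higher and 0 to 5 lower in cRGCs, and 0 to 1 lower in the interaction. Omitting TMM moved the median of all genes by 0.12 (log2) in Opn4-GFP adults, 0.14 in Opn4-Cre/GFP adults and -0.17 in cRGCs with age. Members near the authors' minimum, such as Draxin and Sema3d, are limited by depth.

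With the replicate block (pool number) the counts were 8 higher and 5 lower at P5, 3 and 5 in Opn4-GFP adults and 1 and 3 in Opn4-Cre/GFP adults, and with edgeR and that block 7 and 5, 1 and 2, and 0 and 1. As a random effect the block left the age counts at 1 and 0, 4 and 4, and 0 and 1, and those between lines at 0.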
